A study of Mus musculus with 39 samples.

Results

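At embryonic day (E) 7.5, 3 *Stat3* null epiblasts were compared with 9 wild-type (WT) epiblasts. These 12 libraries, chosen by their stage and genotype labels alone, are part of a series of 39, of which 35 hold single epiblasts at E5.5, E6.5 or E7.5 and 4 hold epiblast stem cell lines. Each library held the RNA of 1 epiblast from which the extraembryonic ectoderm and the visceral endoderm had been taken off by hand. The parents were heterozygous for an allele in which a neomycin resistance gene stands in place of a block of *Stat3* exons, on a background repeatedly crossed to the outbred CD1 strain, and each embryo was genotyped by PCR on its extraembryonic ectoderm. The null embryos therefore lacked an intact *Stat3* gene from the zygote on and in every lineage, the extraembryonic tissues included. Neither group is labelled with any other engineered allele or a treatment. Litters are not given in the sources used here, so p-values measure the spread between single embryos, and E7.5 counts the time from mating, not the stage of form that an embryo had reached.

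STAT3 is a transcription factor that is phosphorylated by Janus kinases (JAKs) below cytokine receptors of the LIF and IL-6 family, and *Socs* genes, which encode inhibitors of the same receptors, are among its best known targets. The epiblast is the pluripotent layer that gives rise to the whole embryo proper. During gastrulation it forms the primitive streak on its posterior side, through which cells leave as mesoderm and definitive endoderm, while cells on the anterior side turn to neural and surface ectoderm. Pluripotency genes fade as the layer gastrulates, and *Hox* genes, retinoic acid synthesis and segmentation genes come on in its posterior derivatives.

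The question was which genes separated null from WT epiblasts at E7.5. The profile of WT epiblast 3 resembles that of E6.5 epiblasts, so counts and fold changes are given with all 12 epiblasts and without WT 3 (3 null against 8 WT), and where a fit is not named a value is that without WT 3. WT 3 was singled out from its values in these same data, so the p-values without it are not independent of that choice. Levels are CPM, counts scaled to the size of the library with TMM factors. Null values are given for null 1, 2 and 3 in that order, and WT values as WT 3 followed by the range and median of the other 8. A gene was called higher or lower where its log2 fold change, null over WT, was beyond 1 in size with an adjusted p under 0.05 in edgeR's quasi-likelihood test. Fold changes are followed by their standard error.

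Total counts were 37143484 to 41655234 in the null libraries, 39477197 in WT 3 and 25793920 to 36002498 in the other 8, so the null libraries and WT 3 were the deepest. All 12 libraries expressed the epiblast markers *Pou5f1*, *Nanog*, *Sox2*, *Utf1*, *Otx2* and *Fgf5*. Markers of visceral endoderm, which surrounds the epiblast and is removed at dissection, summed over 17 genes to 69.0 to 338 CPM in the null epiblasts, 494 CPM in WT 3 and 838 to 4687 CPM in the other 8 WT. Of its defining members, *Apoa2* and *Trf* were at or near 0 in null (0 to 0.174 CPM and 0.296 to 0.722 CPM), while *Apob* was not (23.7 to 129 CPM). Markers of extraembryonic ectoderm summed to 6.47 to 14.1 CPM in null and 9.08 to 18.0 CPM in WT. Blood and decidua markers of the mother reached 37.0 CPM in null 3, against 12.3 and 12.5 CPM in null 1 and null 2 and 4.06 to 25.9 CPM in WT. By Y-linked genes and *Xist*, null 1 and 2 and WT 5 and 7 were female and the other 8 epiblasts male. With Y-linked genes as a covariate, 171 genes were called with all 12 and 1055 without WT 3 (231 and 1105 without the covariate). Only 151 of the 231 and 956 of the 1105 were called with the covariate too. None of 8 extraembryonic ectoderm genes, 6 maternal blood and decidua genes and 4 Y-linked genes tested was called in either fit.

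*Stat3* itself (chr11:100885098-100939540, minus strand, GRCm38) was low in every null epiblast. It stood at 1.49, 1.29 and 1.23 CPM in the null epiblasts, at 10.9 CPM in WT 3 and at 4.64 to 24.8 CPM (median 13.3) in the other 8. The groups did not overlap, the lowest WT being WT 1. The allele keeps the other exons of the gene, whose reads are counted as well. In log2 CPM the null epiblasts differed from WT by −3.17 with all 12 and by −3.19 without WT 3. By exact two-sided permutation over epiblasts p was 0.00455 and 0.00606, and neither 220 nor 165 splits can give less. In edgeR's fit the log2 fold change was −3.31 ± 0.44, adjusted p = 0.00808 with all 12 and −3.34 ± 0.44, adjusted p = 0.000162 without WT 3. WT 3 thus had *Stat3* at a WT level.

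Over all genes, 231 of 19680 tested were called with all 12 epiblasts (1.17%), 16 higher (0.0813%) and 215 lower (1.09%) in null. Without WT 3 the calls numbered 1105 of 19462 (5.68%), 220 higher (1.13%) and 885 lower (4.55%), and they included all 231. With limma voom and sample quality weights, the split between higher and lower calls moved to 553 against 645 with all 12 and to 597 against 971 without WT 3. The median log2 fold change of all genes tested was −0.02 in both, as TMM scaling centres most genes near 0. The groups did not overlap for 773 genes (3.93%) with all 12, with null lower for 413 (2.1%) and higher for 360 (1.83%). Without WT 3 they did not overlap for 2671 (13.7%), with null lower for 1375 (7.07%) and higher for 1296 (6.66%). As WT 3 was singled out by its profile, its position on the genes called without it is a description and no support for them. It lay nearer to the null mean than to the mean of the other WT for 745 of the 885 genes called lower (84.2%) and for 206 of the 220 called higher (93.6%), against 65.5% of all genes tested. The first set rested on few epiblasts. Leaving out null 2 left 0 calls, with 2749 genes at an unadjusted p under 0.05, leaving out null 1 left 31 and leaving out null 3 left 20, while leaving out any WT but WT 3 left 47 to 155. Without WT 3 from the start, the counts ran from 692 (without null 2) to 1189 (without WT 2).

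**Figure D1:**
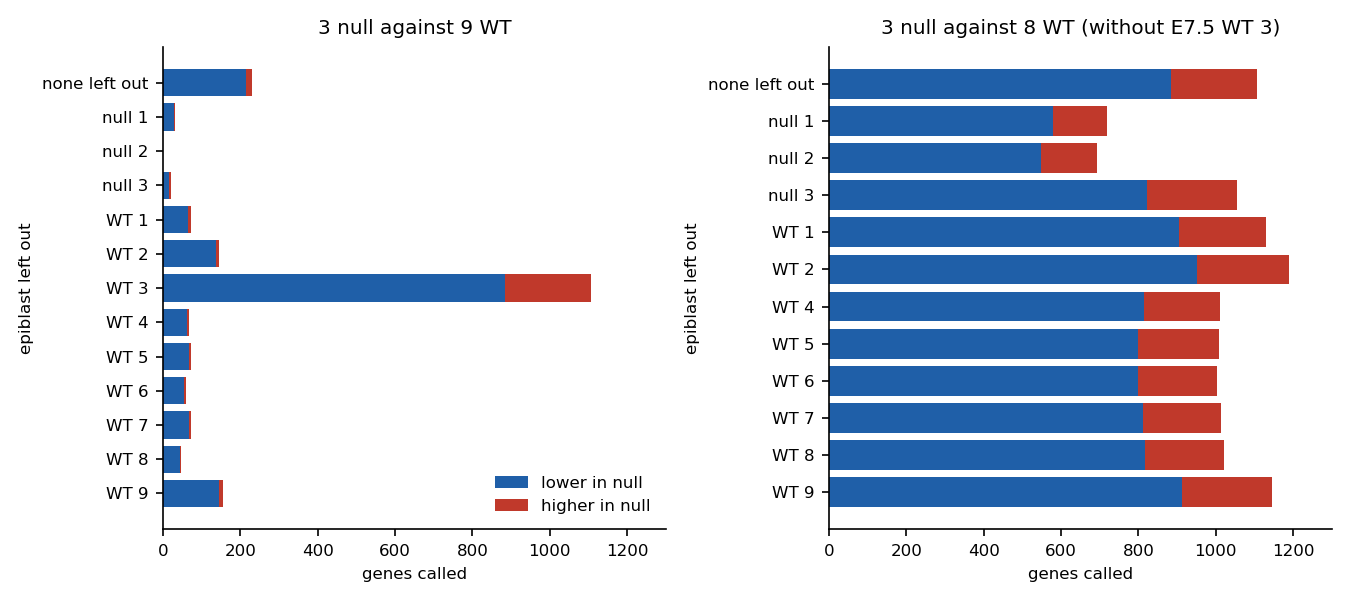
Number of genes called lower (blue) and higher (red) in null (x axis) with each epiblast left out in turn (y axis), for all 12 epiblasts (left) and without WT 3 (right). With all 12 the count falls from 231 to between 0 and 155 when any epiblast but WT 3 is left out and rises to 1105 without WT 3, whereas the counts on the right stay between 692 and 1189.

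Null epiblasts were also set beside the 9 E6.5 WT epiblasts of the series, as a description. For 553 of the 885 genes called lower without WT 3 (62.5%) and 88 of the 220 called higher (40%), all 3 null values lay within the E6.5 WT range, a share that was 61.7% among all genes tested. For the 215 genes called lower with all 12 the share was 74.9%. Fewer genes were detected in E6.5 WT 1 to 3 (17961 to 19380) than in E6.5 WT 4 to 9 (21117 to 22310). E6.5 WT 3 also held 6224 CPM of visceral endoderm markers. The part of these libraries in the width of the E6.5 WT range was not tested. Among the 3 null epiblasts, null 3 stood apart on the genes called lower. It was the highest of the 3 for 442 of the 885 (49.9%), against 36.9% of all genes tested, and for only 26 of the 220 called higher (11.8%).

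**Figure D2:**
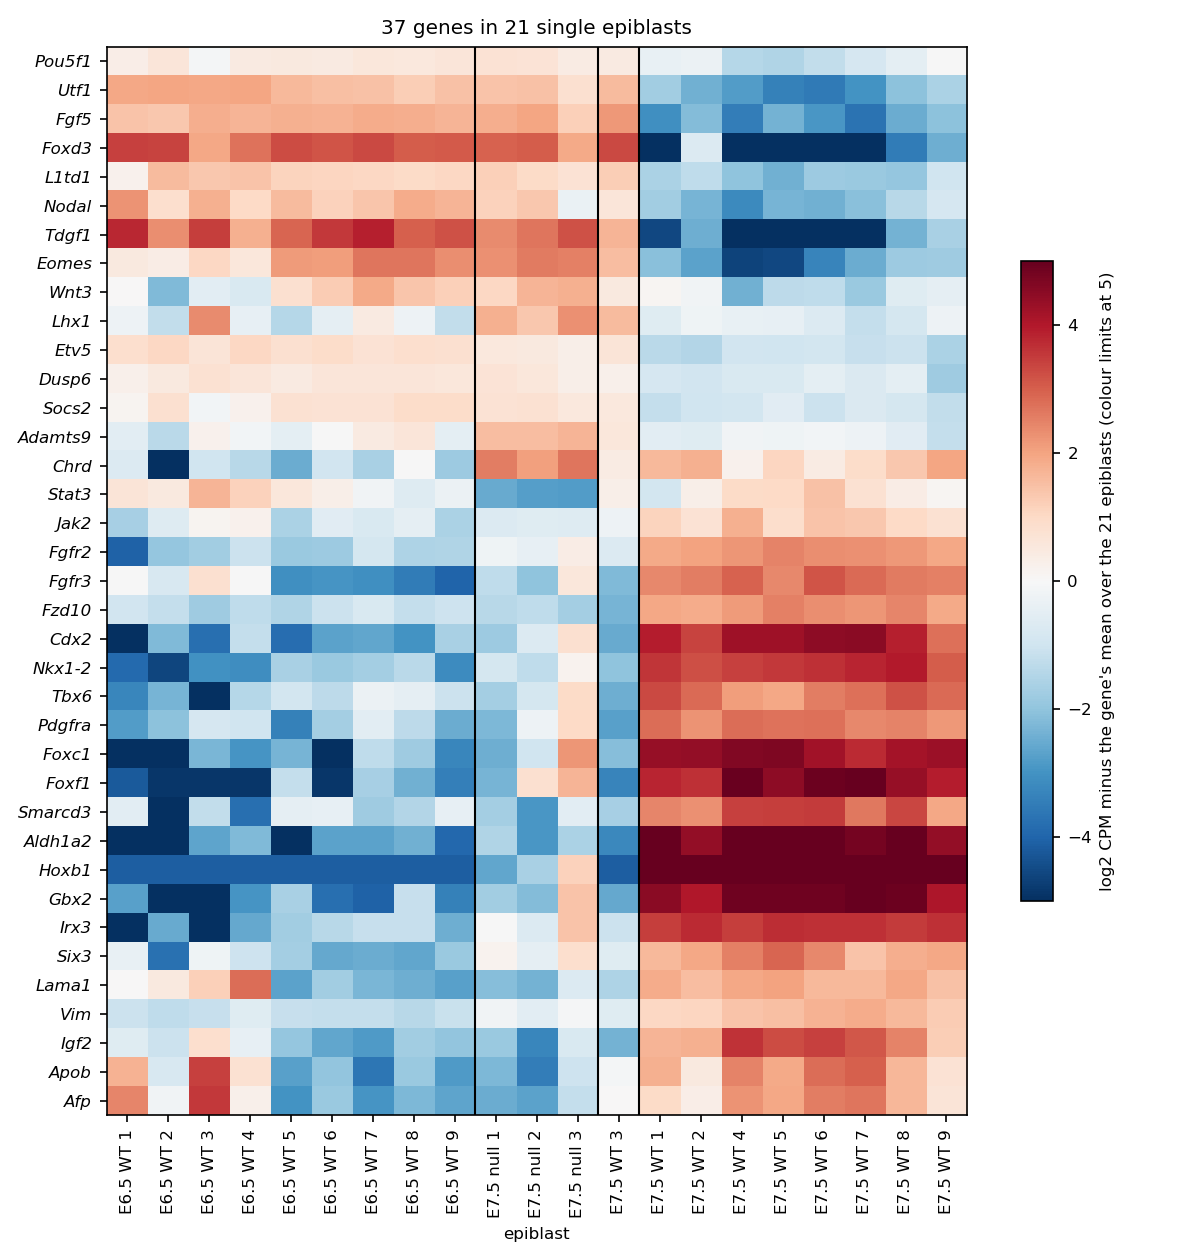
Log2 CPM of 37 genes (rows) in 21 single epiblasts (columns: 9 E6.5 WT, 3 E7.5 null, E7.5 WT 3 and the other 8 E7.5 WT, split by lines), minus each gene's mean over the 21, red above and blue below it. The columns of null 1, null 2 and WT 3 look like the E6.5 columns for most genes, while null 3 is paler, nearer the mean, for *Cdx2*, *Foxc1*, *Gbx2* and other genes that are red in the 8 E7.5 WT columns.

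The JAK-STAT3 list held the LIF and IL-6 receptor subunits, the JAKs, other STATs and known targets. Of its 19 genes tested, 1 rose and 1 fell with all 12 epiblasts, and 1 rose and 5 fell without WT 3, with a median log2 fold change of −0.58. Over all genes tested, 0.0813% were called higher and 1.09% lower with all 12, and 1.13% and 4.55% without WT 3. The counts of each list that follows are to be read beside these shares. The lists were chosen with earlier results of these data known, so their counts and medians are descriptions and no independent support. *Jak2*, the kinase bound to several cytokine receptors, was read at 3.06, 3.20 and 3.12 CPM in null, 4.10 CPM in WT 3 and 8.21 to 16.8 CPM (median 10.4) in the other 8. All 3 null values lay below every WT. It fell by both fits (−1.70 ± 0.34, adjusted p = 0.0324 with all 12, −1.80 ± 0.27, adjusted p = 0.000379 without WT 3). *Jak1*, the other main kinase of this receptor family, fell short of the fold threshold (−0.54 ± 0.12, adjusted p = 0.00764, or −0.47 ± 0.18, adjusted p = 0.156 with all 12), as did the shared receptor subunit *Il6st* (−0.86 ± 0.19, adjusted p = 0.00757, or −0.77 ± 0.26, adjusted p = 0.12 with all 12), and *Lifr* was not called at all (−0.13 ± 0.18, adjusted p = 0.76, or −0.12 ± 0.17, adjusted p = 0.798 with all 12).

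*Socs2*, a feedback inhibitor of cytokine and growth hormone receptors, went the other way. Its levels were 70.7, 73.5 and 62.8 CPM in null, 62.4 CPM in WT 3 and 18.5 to 28.9 CPM (median 22.1) in the other 8, so WT 3 lay just under the null epiblasts and far from the other WT. The log2 fold change was 1.38 ± 0.30, adjusted p = 0.0405 with all 12 and 1.64 ± 0.13, adjusted p = 2.36e-06 without WT 3, and E6.5 WT epiblasts held 39.8 to 82.7 CPM. *Socs3*, the best known STAT3 target, was read at 4.16, 3.30 and 6.20 CPM in null, 4.03 CPM in WT 3 and 6.31 to 14.2 CPM (median 9.67) in the other 8. It was called lower without WT 3 (−1.09 ± 0.30, adjusted p = 0.0224) but not with it (−0.99 ± 0.35, adjusted p = 0.124), and the call was lost without null 1, null 2 or WT 2. *Stat5b* (−1.24 ± 0.25, adjusted p = 0.00331 without WT 3), *Klf4* (−1.25 ± 0.35, adjusted p = 0.0264) and *Tfcp2l1* (−2.47 ± 0.58, adjusted p = 0.0123), the latter pair being pluripotency factors downstream of STAT3 in embryonic stem cells, were lower likewise. The calls of *Klf4* and *Tfcp2l1* were lost without null 1 or null 2. Their values with all 12 were −1.16 ± 0.29, adjusted p = 0.0505, −1.15 ± 0.40, adjusted p = 0.124 and −2.31 ± 0.79, adjusted p = 0.126. The targets *Pim1*, *Pim3*, *Junb*, *Cish*, *Bcl6* and *Socs1* were called in neither fit.

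The promoter of *Socs3* is shown because it holds the STAT motif TTCNNNGAA, which reads the same on both strands. These are the 250 bases upstream of its RefSeq start (chr11:117969367-117969616, minus strand, GRCm38.p6), 5′ to 3′ on the gene's strand, with the motif, which starts 154 bases before that start site, in capitals. In the annotation that gave the position of *Stat3*, *Socs3* begins at base 117970047, so this stretch lies inside the gene there.
Socs3: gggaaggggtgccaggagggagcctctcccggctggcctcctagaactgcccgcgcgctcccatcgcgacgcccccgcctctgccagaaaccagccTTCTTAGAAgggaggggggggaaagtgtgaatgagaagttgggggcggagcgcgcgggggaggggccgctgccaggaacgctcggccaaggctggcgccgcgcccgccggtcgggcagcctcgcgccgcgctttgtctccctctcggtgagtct
Of the windows of 300 bases around RefSeq gene starts, 8.3% of 32851 hold this motif. Counted by gene, it stood in at least 1 window of 9.55% of 27025 genes and of 3 of the 18 JAK-STAT3 list genes that have a window. A window was matched for 156 of the 220 genes called higher, 624 of the 885 called lower and 11734 of the 19462 tested without WT 3, too incomplete a match to compare the share of called and tested genes. A match is a description of the letters and does not show that STAT3 binds there.

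Many pluripotency genes were higher in null epiblasts once WT 3 was left out. Of the 18 genes of the core and primed pluripotency list, 11 rose and 0 fell without WT 3, at a median log2 fold change of 1.36 and beside 1.13% of all genes called higher. With all 12 epiblasts none passed the test and the median was 1.09. *Fgf5*, the standard marker of the post-implantation epiblast, was read at 124, 137 and 79.9 CPM in null, 157 CPM in WT 3 and 2.66 to 8.37 CPM (median 5.46) in the other 8. The null epiblasts and WT 3 lay in or near the E6.5 WT range (89.5 to 126 CPM) and far above the other WT. Its log2 fold change was 4.40 ± 0.29, adjusted p = 2.97e-06 without WT 3 and 2.35 ± 1.21, adjusted p = 0.327 with it. *Utf1*, a chromatin factor of pluripotent cells, gave 208, 216 and 137 CPM in null and 6.73 to 25.9 CPM in the 8 WT (3.69 ± 0.39, adjusted p = 0.00021, or 2.27 ± 1.02, adjusted p = 0.252 with all 12), with 233 CPM in WT 3.

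*Foxd3*, needed to maintain the epiblast, was read at 57.7, 61.2 and 27.7 CPM in null and 74.2 CPM in WT 3, while the other WT held 0 to 4.55 CPM (median 0.111) (5.90 ± 1.19, adjusted p = 0.00931 without WT 3, or 2.43 ± 1.84, adjusted p = 0.556 with all 12). The median of *Foxd3* in the 8 WT lay near the limit of detection, taken as 3 counts (0.0818 to 0.112 CPM there). The size of its fold change is therefore uncertain. The core factors moved less. *Pou5f1* was at 728, 707 and 593 CPM in null and 157 to 440.0 CPM in the 8 WT (1.31 ± 0.31, adjusted p = 0.0202, or 1.13 ± 0.37, adjusted p = 0.121 with all 12), and *Nanog* at 44.8, 58.8 and 21.4 CPM against 5.81 to 18.6 CPM (1.67 ± 0.36, adjusted p = 0.00678, or 1.45 ± 0.42, adjusted p = 0.0796 with all 12). *Sox2* kept below the fold threshold (0.91 ± 0.17, adjusted p = 0.00252, or 0.78 ± 0.23, adjusted p = 0.0835 with all 12). The de novo methyltransferases *Dnmt3a* (1.08 ± 0.11, adjusted p = 2.07e-05, or 0.88 ± 0.27, adjusted p = 0.102 with all 12) and *Dnmt3b* (1.49 ± 0.35, adjusted p = 0.0202, or 1.19 ± 0.48, adjusted p = 0.203 with all 12), *L1td1* (2.67 ± 0.25, adjusted p = 8.43e-05, or 1.87 ± 0.72, adjusted p = 0.181 with all 12), the amino acid transporter *Slc7a3* (2.78 ± 0.31, adjusted p = 0.000119, or 1.87 ± 0.79, adjusted p = 0.221 with all 12), *Pou3f1* (2.13 ± 0.27, adjusted p = 0.00027, or 1.37 ± 0.71, adjusted p = 0.332 with all 12) and *Otx2* (1.41 ± 0.17, adjusted p = 0.000111, or 1.05 ± 0.42, adjusted p = 0.193 with all 12) rose as well. With WT 3 included the adjusted p of these 11 genes lay between 0.0796 (*Nanog*) and 0.556 (*Foxd3*). *Lin28a*, *Sall4* and *Sox3* were called in neither fit. The calls of *Pou5f1* and *Dnmt3b* were lost without null 1 or null 2, and that of *Nanog* without null 2. In these bulk samples fewer cells of a type and less RNA per cell cannot be told apart, here and in each list that follows.

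Nodal, the TGF-beta ligand that patterns the epiblast and induces the streak, followed the same course. *Nodal* stood at 14.7, 16.9 and 5.25 CPM in null, 10.1 CPM in WT 3 and 0.673 to 3.66 CPM in the 8 WT (2.83 ± 0.42, adjusted p = 0.000405 without WT 3, 2.21 ± 0.63, adjusted p = 0.0736 with it). Its co-receptor *Tdgf1* was read at 64.1, 80.3 and 112 CPM in null, 40.3 CPM in WT 3 and 0 to 4.02 CPM (median 0.375) in the other 8 (6.19 ± 0.99, adjusted p = 0.00271, 3.94 ± 1.48, adjusted p = 0.174 with WT 3). Null 3 had the lowest *Nodal* and the highest *Tdgf1* of the null epiblasts. A further co-receptor gene, *Cfc1*, fell (−1.49 ± 0.35, adjusted p = 0.00913, or −1.35 ± 0.50, adjusted p = 0.144 with all 12), a call lost without null 2. Of the 10 genes tested on the Nodal list 2 rose and 1 fell without WT 3, and none passed with all 12.

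**Figure D3:**
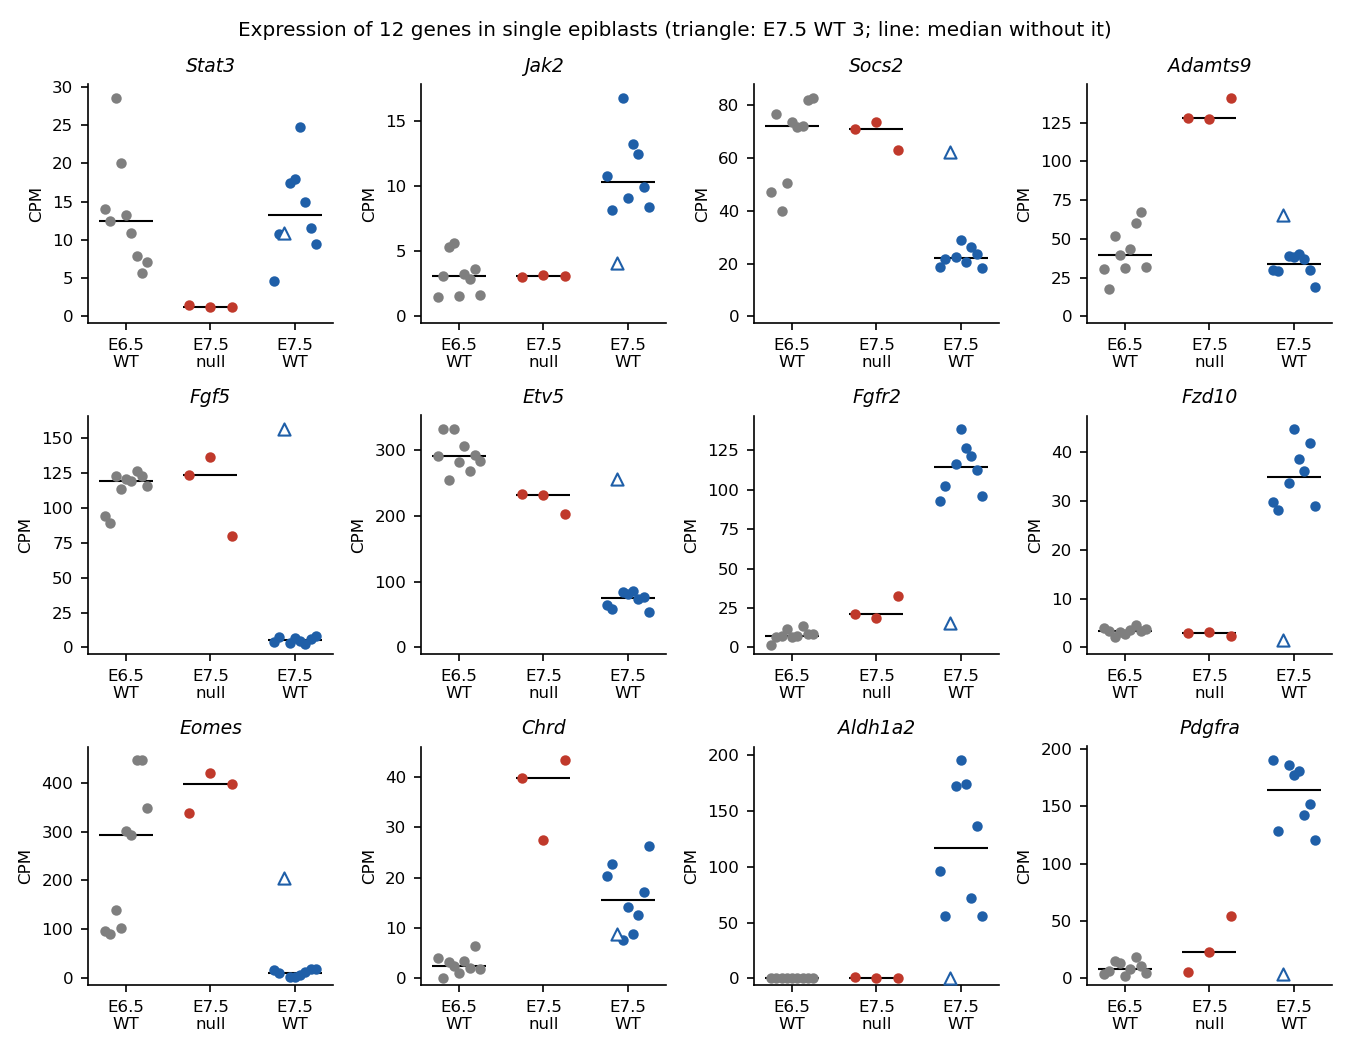
CPM (y axis, linear) of 12 genes in single E6.5 WT (grey), E7.5 null (red) and E7.5 WT (blue) epiblasts, each point being 1 epiblast, the open triangle E7.5 WT 3 and the line the median without it. *Stat3* is at 1.23 to 1.49 CPM in the null epiblasts and at least 4.64 CPM in WT, *Adamts9* is higher in null than in both WT stages, and for *Fgf5*, *Etv5*, *Fgfr2* and *Fzd10* WT 3 lies with the null and E6.5 epiblasts.

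Without WT 3, several feedback targets of FGF signalling were higher and the 4 receptor genes lower. FGFs act through receptor tyrosine kinases and ERK, and the Sprouty (*Spry*), *Dusp6* and *Il17rd* products are feedback inhibitors, while *Etv4* and *Etv5* are transcription factors induced by the pathway. Of 18 genes tested, 1 rose and 1 fell with all 12 epiblasts, and 6 rose and 4 fell without WT 3. *Etv5* was read at 234, 232 and 203 CPM in null, 256 CPM in WT 3 and 54.0 to 86.4 CPM (median 75.3) in the other 8. No null value overlapped the 8 WT, and WT 3 exceeded all 3 null. The log2 fold change was 1.65 ± 0.12, adjusted p = 1.12e-06 without WT 3 and 1.28 ± 0.41, adjusted p = 0.112 with it. *Dusp6*, which encodes an ERK phosphatase, was called by both fits (1.2 ± 0.27, adjusted p = 0.0442 with all 12 and 1.38 ± 0.18, adjusted p = 0.000168 without WT 3), with 102, 94.6 and 77.7 CPM in null, 76.0 CPM in WT 3 and 18.6 to 45.6 CPM in the other 8. *Spry2* (1.15 ± 0.18, adjusted p = 0.000675, or 0.98 ± 0.27, adjusted p = 0.0732 with all 12), *Spry4* (1.47 ± 0.26, adjusted p = 0.00198, or 1.18 ± 0.41, adjusted p = 0.139 with all 12) and *Il17rd* (1.29 ± 0.22, adjusted p = 0.00176, or 1.06 ± 0.35, adjusted p = 0.116 with all 12) rose without WT 3, and so did the ligand *Fgf15* (1.25 ± 0.23, adjusted p = 0.00183, or 1.07 ± 0.29, adjusted p = 0.061 with all 12). *Spry1* stayed under the fold threshold (0.57 ± 0.15, adjusted p = 0.0151, or 0.44 ± 0.21, adjusted p = 0.273 with all 12), *Dusp4* (−0.89 ± 0.32, adjusted p = 0.0951, or −0.80 ± 0.36, adjusted p = 0.249 with all 12), *Spred1* (−0.36 ± 0.13, adjusted p = 0.0847, or −0.29 ± 0.18, adjusted p = 0.431 with all 12) and *Spred2* (−0.07 ± 0.11, adjusted p = 0.793, or −0.05 ± 0.12, adjusted p = 0.899 with all 12), other feedback regulators, were not called and had negative values, *Etv4* was not called (0.58 ± 0.25, adjusted p = 0.142, or 0.56 ± 0.24, adjusted p = 0.214 with all 12) and nor was the immediate early gene *Egr1*, which ranged from 2.25 to 33.9 CPM among the null epiblasts.

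All 4 receptor genes fell without WT 3. *Fgfr2* was read at 21.4, 18.8 and 32.5 CPM in null, 15.3 CPM in WT 3 and 92.7 to 139 CPM (median 114) in the other 8, with no overlap between null and the 8 WT. Its log2 fold change was −2.19 ± 0.17, adjusted p = 2.33e-06 without WT 3 and −2.05 ± 0.52, adjusted p = 0.0621 with it. *Fgfr1*, the main receptor of the epiblast, stood at 171, 197 and 184 CPM against 333 to 425 CPM (−1.0 ± 0.08, adjusted p = 2.36e-06, or −0.90 ± 0.25, adjusted p = 0.0796 with all 12), just past the fold threshold, and its call was lost when null 1, null 3, WT 1, WT 4 or WT 8 was left out. *Fgfr3* gave 1.69, 0.994 and 6.12 CPM against 22.4 to 37.8 CPM (−3.20 ± 0.47, adjusted p = 0.000557, or −3.03 ± 0.90, adjusted p = 0.0939 with all 12). *Fgfr4* was at 0.423, 0 and 0.460 CPM in null, 2.08 CPM in WT 3 and 2.21 to 9.43 CPM in the other 8, and was called by both fits (−4.19 ± 0.85, adjusted p = 0.0324 with all 12, −4.29 ± 0.80, adjusted p = 0.00193 without WT 3).

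Streak genes divided into those that rose and those that fell. Of 19 genes tested on the list of the primitive streak and nascent mesoderm, 4 rose and 6 fell without WT 3, and with all 12 *Wnt3* rose and *Msgn1* fell. *Eomes*, the T-box factor of the early streak and of mesendoderm, was read at 338, 419.6 and 398 CPM in null, 205 CPM in WT 3 and 2.77 to 20.2 CPM (median 11.6) in the other 8. The lowest null value was 338 CPM, above every WT, and the E6.5 WT ranged from 89.8 to 447 CPM. The log2 fold change was 5.09 ± 0.55, adjusted p = 0.00033 without WT 3 and 3.55 ± 1.10, adjusted p = 0.109 with it. *Wnt3*, the ligand needed to start the streak, was read at 13.1, 20.9 and 22.3 CPM in null, 9.13 CPM in WT 3 and 1.16 to 6.90 CPM in the other 8, and rose by both fits (2.14 ± 0.45, adjusted p = 0.0337 with all 12, 2.37 ± 0.40, adjusted p = 0.00105 without WT 3). *Lhx1*, a factor of anterior mesendoderm, gave 82.1, 59.9 and 116 CPM in null, 71.0 CPM in WT 3 and 10.2 to 20.2 CPM in the other 8 (2.44 ± 0.20, adjusted p = 3.05e-06, or 1.97 ± 0.49, adjusted p = 0.0603 with all 12). *Fgf8* overlapped the WT (33.6, 52.8 and 21.1 CPM against 7.76 to 24.3 CPM, 1.28 ± 0.27, adjusted p = 0.0051, or 1.01 ± 0.40, adjusted p = 0.186 with all 12), and its call was lost without null 2.

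The genes that fell belong to the later streak and its posterior progenitors. *Cdx2*, a caudal homeobox factor, was read at 1.12, 2.55 and 7.07 CPM in null, 0.667 CPM in WT 3 and 28.2 to 93.1 CPM (median 70.4) in the other 8 (−4.19 ± 0.62, adjusted p = 0.00153, −4.02 ± 1.17, adjusted p = 0.0941 with WT 3). *Nkx1-2*, of the caudal epiblast, was at 6.15, 4.73 and 13 CPM in null and 92.5 to 177 CPM in the 8 WT (−4.04 ± 0.34, adjusted p = 3.43e-05, or −3.87 ± 0.97, adjusted p = 0.0638 with all 12), and the presomitic factor *Tbx6* at 1.30, 2.36 and 8.52 CPM against 16.9 to 43.2 CPM (−2.84 ± 0.55, adjusted p = 0.00456, or −2.67 ± 0.95, adjusted p = 0.145 with all 12). In all of these null 3 was the highest null epiblast. *Msgn1*, a master regulator of presomitic mesoderm, had 0 counts in all 3 null epiblasts and in WT 3 and 10.8 to 26.6 CPM in the other 8, at least 239-fold lower in null without WT 3 and at least 212-fold lower with it, against a limit of 3 counts per library. *Wnt3a* (−2.28 ± 0.65, adjusted p = 0.0347, or −2.11 ± 1.0, adjusted p = 0.27 with all 12) and *Cdx1* (0, 0.698 and 0 CPM in null, 5.49 to 154 CPM in the 8 WT, adjusted p = 0.0207) fell without WT 3, but the call of *Wnt3a* was lost without null 1, null 2, WT 5 or WT 7, and that of *Cdx1* without any of the 3 null. *T* (Brachyury), the general streak marker, was called in neither fit (51.4, 71.5 and 171 CPM in null, 5.51 CPM in WT 3, 76.5 to 229 CPM in the other 8, −0.68 ± 0.49, adjusted p = 0.47, or −0.51 ± 0.80, adjusted p = 0.832 with all 12). *Mixl1* lay above every WT in null (29 to 52.8 CPM against no more than 27.5 CPM) without passing the test (2.18 ± 0.98, adjusted p = 0.199, or 2.24 ± 0.92, adjusted p = 0.207 with all 12), and *Mesp1*, *Snai1*, *Evx1* and *Sp5* were not called.

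Organizer genes were mixed in the same way. Of 14 genes tested, *Trh* rose and *Sox17*, *Nog* and *Shh* fell with all 12 epiblasts, and *Chrd* and *Gsc* joined the higher ones without WT 3. *Chrd*, a secreted BMP antagonist of the node, was read at 39.7, 27.6 and 43.4 CPM in null, 8.77 CPM in WT 3 and 7.71 to 26.3 CPM (median 15.6) in the other 8. All 3 null values were above every WT at E7.5, although the margin to WT 9 was small, and above the highest E6.5 WT (6.49 CPM). The log2 fold change was 1.21 ± 0.31, adjusted p = 0.0175 without WT 3 and 1.29 ± 0.32, adjusted p = 0.0522 with it, and the call was lost without null 1 or null 3. *Gsc*, an organizer homeobox gene, gave 14.7, 11.6 and 3.27 CPM in null and 0 to 2.73 CPM in the 8 WT (3.26 ± 0.98, adjusted p = 0.0438, or 2.24 ± 1.19, adjusted p = 0.338 with all 12), a call lost without null 1, null 2 or any of 5 WT. *Nog*, a second BMP antagonist, went down (0.398, 0.564 and 2.06 CPM in null, 1.38 CPM in WT 3, 4.62 to 13.4 CPM in the other 8, −2.78 ± 0.64, adjusted p = 0.0417 with all 12, −2.91 ± 0.52, adjusted p = 0.00146 without WT 3). *Shh*, the notochord signal, had 0 counts in all 3 null epiblasts and in WT 3, at least 131-fold below the other 8 (4.20 to 15.4 CPM). *Sox17*, a definitive endoderm factor that visceral endoderm also expresses, was at 8.92, 5 and 5.69 CPM in null, 7.28 CPM in WT 3 and 17.9 to 37.3 CPM in the other 8 (−1.89 ± 0.38, adjusted p = 0.0324 with all 12, −2.01 ± 0.24, adjusted p = 8.48e-05 without WT 3). *Foxa2*, *Cer1*, *Noto* and *Foxj1* were called in neither fit, with *Foxa2* at 65.6, 47.8 and 37.9 CPM in null and 26.4 to 43.8 CPM in the 8 WT.

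Mesoderm genes were lower as a group. Of the 25 genes on the list of paraxial, lateral plate and cardiac mesoderm, 17 fell and none rose without WT 3, with a median log2 fold change of −3.13 against −0.02 over all genes tested, of which 4.55% were called lower. With all 12, *Twist1* and *Tbx5* alone of the list passed, at a median of −2.98 and beside 1.09% of all genes. Summed over the list, null 1, 2 and 3 held 58.0 to 251 CPM, WT 3 held 45.4 CPM and the other 8 WT held 471 to 1016 CPM, with null 3 the highest null. Visceral endoderm markers were lower in the same null epiblasts (69.0 to 338 CPM against 838 to 4687 CPM), and their part in this and the other lower lists was not tested. *Pdgfra*, the receptor that marks nascent mesoderm, was read at 5.68, 22.9 and 54.6 CPM in null, 4.13 CPM in WT 3 and 121 to 191 CPM (median 165) in the other 8 (−2.50 ± 0.56, adjusted p = 0.0164, or −2.33 ± 0.95, adjusted p = 0.207 with all 12). *Foxc1*, of paraxial mesoderm, gave 0.473, 1.34 and 13.1 CPM against 37.8 to 71.5 CPM (−3.47 ± 0.85, adjusted p = 0.0236, or −3.30 ± 1.26, adjusted p = 0.178 with all 12), and *Foxf1*, of lateral plate, 0.249, 2.58 and 4.96 CPM against 19.3 to 62.7 CPM (−3.74 ± 0.76, adjusted p = 0.00812, or −3.57 ± 1.30, adjusted p = 0.158 with all 12). These 3 calls were lost without null 2. *Twist1*, a mesenchyme factor, stood at 0.872, 2.69 and 5.23 CPM in null, 2.74 CPM in WT 3 and 21 to 32.9 CPM in the other 8 (−2.98 ± 0.69, adjusted p = 0.0479 with all 12, −3.13 ± 0.41, adjusted p = 0.000166 without WT 3). *Smarcd3*, an early cardiac chromatin subunit, was at 1.15, 0.457 and 2.66 CPM in null and 14.9 to 43.4 CPM in the 8 WT (−4.39 ± 0.58, adjusted p = 0.000396, or −4.23 ± 0.99, adjusted p = 0.0522 with all 12), and *Tbx1*, of pharyngeal mesoderm, at 0.0747, 0.107 and 0.0484 CPM against 4.08 to 21.5 CPM (−6.91 ± 0.81, adjusted p = 6.27e-05, or −6.74 ± 1.58, adjusted p = 0.051 with all 12). The null values of *Tbx1* lie near the limit of 3 counts (0.0726 to 0.0806 CPM in null), so the size of its fold change is uncertain.

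*Tbx5*, of the heart field, had 0 counts in every null epiblast and in WT 3, and was at least 47.6-fold below the other 8 (1.30 to 7.45 CPM). *Hand1*, *Gata4*, *Gata6*, *Foxc2*, *Tbx3* and *Msx1* were not called, with *Hand1* at 1.64, 1.93 and 20.5 CPM in null and 19.3 to 159.8 CPM in the 8 WT (−3.12 ± 1.04, adjusted p = 0.0811, or −2.96 ± 1.34, adjusted p = 0.256 with all 12). Of 17 tested genes of blood and endothelial progenitors, only *Gata2* (−3.39 ± 0.60, adjusted p = 0.0015, or −3.22 ± 1.22, adjusted p = 0.167 with all 12) and *Aplnr* (−1.54 ± 0.41, adjusted p = 0.0303, or −1.38 ± 0.76, adjusted p = 0.368 with all 12) passed, both lower and both only without WT 3, and the call of *Aplnr* was lost without null 1 or null 2. *Kdr*, the receptor of the common progenitor, ranged from 2.59 to 39.1 CPM in null and from 16.8 to 107 CPM in the 8 WT and was not called (−1.72 ± 0.93, adjusted p = 0.299, or −1.55 ± 1.22, adjusted p = 0.577 with all 12).

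*Hox* genes, which pattern the posterior axis, were low in null epiblasts. Summed over the *Hox* list they gave 3.22 to 13.7 CPM in null, 4.87 CPM in WT 3 and 69.4 to 249 CPM in the other 8, with 0 to 6.62 CPM in E6.5 WT. Of 24 tested without WT 3, 9 fell and none rose, *Hoxb1* to *Hoxb4* among them. With all 12, *Hoxa2* and *Hoxb4* fell among 25 tested. The median was −5.64 as fitted and −4.44 with the 10 genes that had no more than 3 counts in any null epiblast set to their bound. *Hoxb1*, among the earliest to come on, was read at 0.0996, 0.242 and 2.01 CPM in null, 0 in WT 3 and 29 to 59.8 CPM (median 43.1) in the other 8 (−5.74 ± 0.74, adjusted p = 0.000552, or −5.57 ± 1.55, adjusted p = 0.0827 with all 12). Null 3 was again the highest null epiblast. *Hoxb3os*, an antisense RNA to *Hoxb3*, ranked among the 10 genes with the smallest p (at least 127-fold lower without WT 3). Whether strand was used in counting is not given in the sources used here, so its reads cannot be told apart from those of *Hoxb3*.

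**Figure D4:**
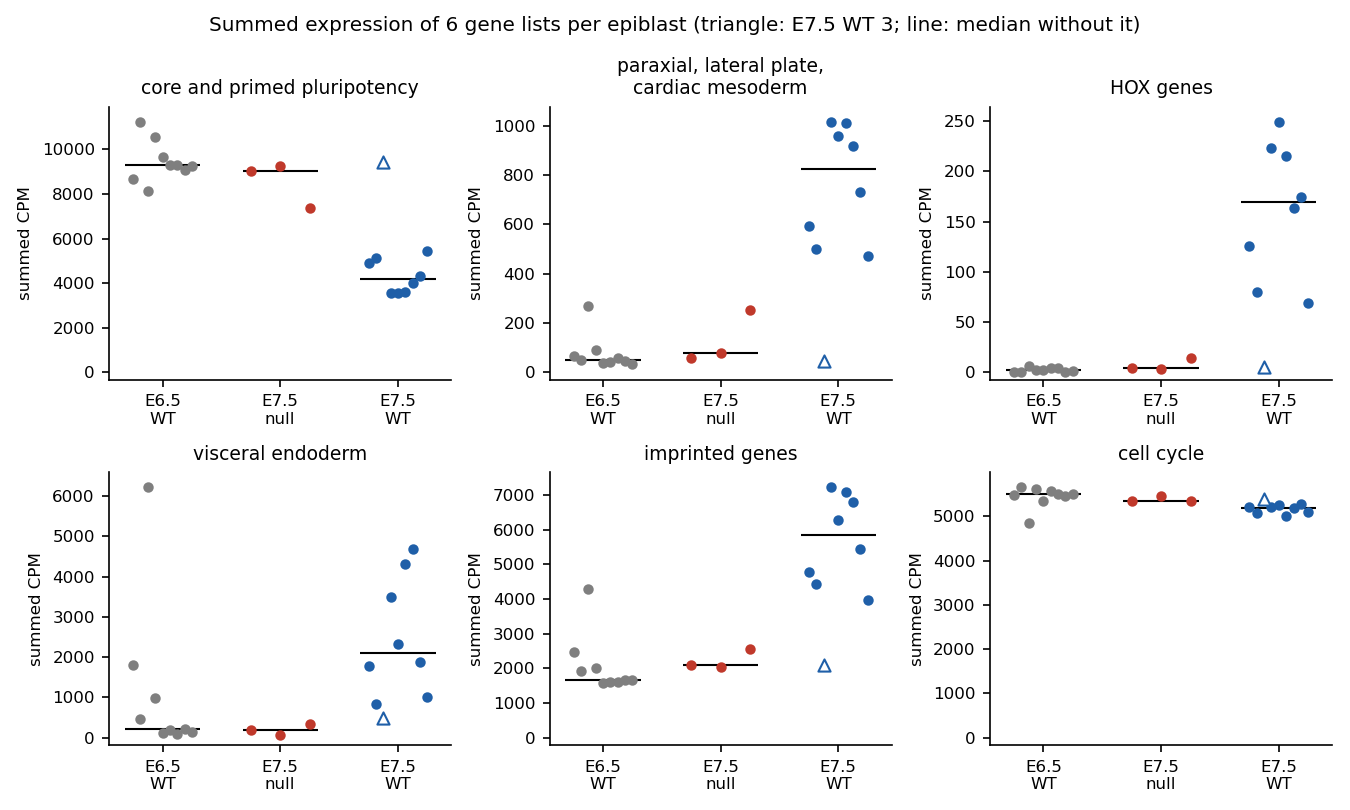
Summed CPM (y axis, linear) of 6 gene lists in single E6.5 WT (grey), E7.5 null (red) and E7.5 WT (blue) epiblasts, the open triangle being E7.5 WT 3 and the line the median without it. Pluripotency genes sum to at least 7378 CPM in null against at most 5440 CPM in the 8 WT, and mesoderm, *Hox*, visceral endoderm and imprinted genes sum to less in each null epiblast than in any of the 8 WT. The cell cycle list differs little in size, but each null epiblast (5339 to 5464 CPM) lies above all of the 8 WT (5016 to 5280 CPM).

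Retinoic acid, the vitamin A derivative that activates *Hox* genes, is made by RALDH2, the product of *Aldh1a2*. This gene was read at 0.872, 0.296 and 0.823 CPM in null, 0.231 CPM in WT 3 and 55.6 to 196 CPM (median 116) in the other 8. Every null value was under 1 CPM and every one of the 8 WT above 55 CPM. It fell by both fits (−7.27 ± 1.61, adjusted p = 0.0494 with all 12 and −7.44 ± 0.73, adjusted p = 0.000161 without WT 3). Of 13 genes tested on this list 4 fell with all 12 and 6 without WT 3, and none rose. The receptor *Rarb*, itself induced by the ligand, was at 0, 0.564 and 0.460 CPM in null, 1.85 CPM in WT 3 and 2.32 to 20.5 CPM in the other 8 (−4.51 ± 1.05, adjusted p = 0.0471 with all 12, −4.65 ± 0.97, adjusted p = 0.00662 without WT 3). The binding protein *Crabp1* fell with all 12 (−2.69 ± 0.57, adjusted p = 0.0391 with all 12, or −2.83 ± 0.35, adjusted p = 0.000109 without WT 3), and its relative *Crabp2* (−2.49 ± 0.25, adjusted p = 1.85e-05, or −2.34 ± 0.56, adjusted p = 0.0532 with all 12) and the uptake receptor *Stra6* (−2.17 ± 0.38, adjusted p = 0.00129, or −2.02 ± 0.60, adjusted p = 0.0857 with all 12) fell without WT 3. *Rara* (0.04 ± 0.14, adjusted p = 0.931, or 0.01 ± 0.14, adjusted p = 0.992 with all 12), *Rarg* (0.16 ± 0.11, adjusted p = 0.431, or 0.10 ± 0.13, adjusted p = 0.778 with all 12) and the degrading enzyme *Cyp26a1* (0.56 ± 0.26, adjusted p = 0.189, or 0.56 ± 0.24, adjusted p = 0.212 with all 12) were not called.

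In the Wnt list 5 of 18 genes fell and none rose without WT 3, where 4.55% of all genes were called lower. With all 12, where the share was 1.09%, *Fzd10* and *Notum* fell. *Fzd10*, a Wnt receptor of the posterior embryo, came first among the lower genes named by rule without WT 3. It was read at 2.91, 3.17 and 2.35 CPM in null, 1.51 CPM in WT 3 and 28.1 to 44.8 CPM (median 34.9) in the other 8 (−3.45 ± 0.75, adjusted p = 0.0435 with all 12, −3.61 ± 0.20, adjusted p = 1.44e-07 without WT 3), and WT 3 was the lowest of the 12. *Notum*, a secreted Wnt inhibitor, had 0 counts in all 3 null epiblasts and WT 3, at least 97.5-fold below the other 8. *Wnt8a* (−1.73 ± 0.21, adjusted p = 7.57e-05, or −1.58 ± 0.49, adjusted p = 0.0989 with all 12), *Rspo3* (−2.01 ± 0.26, adjusted p = 0.000134, or −1.85 ± 0.62, adjusted p = 0.121 with all 12) and *Nkd1* (−1.91 ± 0.39, adjusted p = 0.00854, or −1.76 ± 0.68, adjusted p = 0.184 with all 12) fell without WT 3. The general target *Axin2* stayed just under the fold threshold (−0.91 ± 0.11, adjusted p = 7.57e-05, or −0.79 ± 0.33, adjusted p = 0.212 with all 12), and the effectors *Lef1*, *Tcf7* and *Tcf7l1* were not called.

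Of 14 BMP genes, 5 fell without WT 3 (*Bmp4*, *Bmp5*, *Id2*, *Smad6* and *Grem1*), and *Grem1* alone with all 12. *Bmp4* was read at 0.921, 1.34 and 3.44 CPM in null and 2.82 to 23.2 CPM in the 8 WT (−2.72 ± 0.71, adjusted p = 0.0232, or −2.57 ± 0.86, adjusted p = 0.121 with all 12), with a call lost without null 1 or null 2, and *Smad6*, a feedback inhibitor, at 7.77, 6.45 and 11.1 CPM against 13.7 to 35.5 CPM (−1.36 ± 0.32, adjusted p = 0.00967, or −1.22 ± 0.50, adjusted p = 0.192 with all 12), lost likewise. *Id1* (−0.91 ± 0.37, adjusted p = 0.139, or −0.75 ± 0.61, adjusted p = 0.593 with all 12) and *Id3* (−0.19 ± 0.13, adjusted p = 0.46, or −0.15 ± 0.15, adjusted p = 0.692 with all 12), the usual readouts of the pathway, were not called. Of 14 Notch and segmentation genes, *Notch1*, *Dll4*, *Hes7* and *Hey2* fell without WT 3 and none passed with all 12. *Notch1* stood at 23.5, 29.7 and 72.3 CPM in null, 23.7 CPM in WT 3 and 140.5 to 270.1 CPM in the other 8 (−2.03 ± 0.36, adjusted p = 0.004, or −1.89 ± 0.60, adjusted p = 0.112 with all 12). *Hes7*, the oscillator of somite formation, gave 0, 0.215 and 1.26 CPM against 5.07 to 23.5 CPM (−4.43 ± 0.95, adjusted p = 0.00808, or −4.26 ± 1.29, adjusted p = 0.0968 with all 12), lost without null 2. *Dll1*, the ligand of presomitic mesoderm, ran from 3.09 to 55.4 CPM in null, with null 3 the highest, and 75 to 190 CPM in the 8 WT, and was not called (−2.36 ± 0.87, adjusted p = 0.115, or −2.19 ± 1.21, adjusted p = 0.372 with all 12).

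Ectoderm genes fell on both the neural and the non-neural side. Of 18 neuroectoderm genes tested, 9 fell and *Zic2* rose without WT 3 (median −1.89), and *Lhx5* fell with all 12. *Gbx2*, of the posterior neural plate, was read at 1.12, 0.806 and 10.4 CPM in null, 0.615 CPM in WT 3 and 63.3 to 129 CPM (median 113) in the other 8 (−4.57 ± 0.80, adjusted p = 0.00458, or −4.41 ± 1.34, adjusted p = 0.104 with all 12). *Irx3* gave 10.9, 6.77 and 29.2 CPM against 119 to 144 CPM (−3.04 ± 0.39, adjusted p = 0.00061, or −2.88 ± 0.84, adjusted p = 0.0949 with all 12). *Six3* and *Lhx5*, of the anterior neural plate, were at 4.91, 3.14 and 7.84 CPM against 11.7 to 33.1 CPM (−1.84 ± 0.35, adjusted p = 0.00213, or −1.70 ± 0.54, adjusted p = 0.102 with all 12) and at 0.573, 1.34 and 1.89 CPM against 5.24 to 16 CPM (−2.75 ± 0.60, adjusted p = 0.0353 with all 12, −2.90 ± 0.42, adjusted p = 0.000314 without WT 3). Posterior and anterior markers were thus both lower. *Zic2*, also expressed throughout the early epiblast, rose (261, 275 and 221 CPM against 65.3 to 154 CPM, 1.33 ± 0.25, adjusted p = 0.00535, or 1.10 ± 0.37, adjusted p = 0.126 with all 12). *Nes* and *Pax6* were not called. Of 11 genes of non-neural ectoderm and amnion, 4 fell with all 12 and 7 without WT 3. The simple-epithelium keratins *Krt8* (−1.86 ± 0.40, adjusted p = 0.0446 with all 12, −1.98 ± 0.23, adjusted p = 0.000207 without WT 3) and *Krt18* (−1.62 ± 0.26, adjusted p = 0.02 with all 12, −1.71 ± 0.17, adjusted p = 3.16e-05 without WT 3), which visceral endoderm also makes, were among them, with *Krt18* at 77.4, 56.6 and 76.4 CPM in null, 107 CPM in WT 3 and 164 to 283 CPM in the other 8. *Wnt6* had 0 counts in each null epiblast and in WT 3, at least 63.2-fold below the other 8.

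The switch from epithelium to mesenchyme was read on 15 genes, of which 3 fell and none rose without WT 3 and none passed with all 12. *Zeb1* and *Zeb2*, repressors of *Cdh1*, were at 0.822, 0.564 and 3.34 CPM against 12.6 to 28.5 CPM (−3.44 ± 0.51, adjusted p = 0.000457, or −3.27 ± 1.06, adjusted p = 0.113 with all 12) and 22.6, 18.4 and 64.7 CPM against 88.1 to 143 CPM (−1.63 ± 0.36, adjusted p = 0.0122, or −1.48 ± 0.58, adjusted p = 0.184 with all 12, a call lost without null 1), and the intermediate filament gene *Vim* at 50.2, 40.3 and 54.5 CPM against 118 to 210.1 CPM (−1.69 ± 0.18, adjusted p = 4.18e-05, or −1.56 ± 0.40, adjusted p = 0.0623 with all 12). *Cdh1* (0.54 ± 0.14, adjusted p = 0.0211, or 0.46 ± 0.17, adjusted p = 0.159 with all 12) and *Epcam* (0.82 ± 0.15, adjusted p = 0.00252, or 0.67 ± 0.25, adjusted p = 0.164 with all 12) differed by less than the fold threshold, and *Snai1*, *Cdh2* and *Fn1* were not called. *Fn1*, the fibronectin gene, was at 1349.8 CPM in null 3, near the lowest of the 8 WT (1428 CPM), and at 317 and 472 CPM in null 1 and 2.

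Of 23 matrix genes tested, 11 fell and none rose without WT 3, and 3 of them (*Col4a1*, *Col4a2* and *Lama1*) fell with all 12. *Lama1*, a laminin of basement membranes, was read at 12.4, 10.6 and 33.3 CPM in null, 18.5 CPM in WT 3 and 151 to 218 CPM (median 183) in the other 8 (−3.11 ± 0.69, adjusted p = 0.0483 with all 12, −3.26 ± 0.36, adjusted p = 0.000233 without WT 3). *Col4a1* gave 146, 115 and 174 CPM in null, 178 CPM in WT 3 and 372 to 567 CPM in the other 8 (−1.60 ± 0.30, adjusted p = 0.033 with all 12, −1.71 ± 0.16, adjusted p = 2.26e-05 without WT 3), all null values lying below every WT. *Fbn2* was at 13.3, 10.9 and 27.7 CPM against 52.2 to 129 CPM (−2.17 ± 0.37, adjusted p = 0.00282, or −2.01 ± 0.68, adjusted p = 0.13 with all 12). Visceral endoderm also makes laminin and type IV collagen. Its own markers moved with these genes, 12 of 17 falling without WT 3 and 4 with all 12 (median −3.50 and −3.35), as in *Afp* (2.94, 2.55 and 7.19 CPM in null, 16.9 CPM in WT 3, 20.7 to 106 CPM in the other 8, −3.67 ± 0.75, adjusted p = 0.0398 with all 12, or −3.78 ± 0.70, adjusted p = 0.0053 without WT 3) and *Apob* (55.8, 23.7 and 129 CPM against 365 to 2056 CPM, −3.96 ± 0.81, adjusted p = 0.0105 without WT 3, or −3.83 ± 0.88, adjusted p = 0.0524 with all 12, a call lost without null 1). Their part in the lower matrix genes was not tested.

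Imprinted genes, which are expressed from 1 parental allele and many of which promote growth of the embryo, were mostly lower. Of 18 tested, 9 fell and *Snrpn* rose without WT 3 (median −1.71), and *Nnat* fell with all 12. *Igf2*, the fetal growth factor, was read at 15, 5.70 and 31.9 CPM in null, 10.6 CPM in WT 3 and 129 to 672 CPM (median 386) in the other 8 (−4.41 ± 0.82, adjusted p = 0.00652, −4.25 ± 1.17, adjusted p = 0.0827 with WT 3). *H19*, its neighbour in the same domain, gave 95.7, 36.7 and 231 CPM against 534 to 1941 CPM (−3.25 ± 0.74, adjusted p = 0.0182, or −3.10 ± 0.95, adjusted p = 0.105 with all 12), a call lost without null 1 or null 2. *Peg3* was at 349, 420.3 and 763 CPM against 1349 to 1930.2 CPM (−1.72 ± 0.23, adjusted p = 0.000774, or −1.58 ± 0.46, adjusted p = 0.0911 with all 12), and *Snrpn* at 235, 244 and 219.8 CPM against 88.7 to 167 CPM (1.09 ± 0.16, adjusted p = 0.000411, or 0.92 ± 0.27, adjusted p = 0.0863 with all 12). *Meg3*, *Mest*, *Grb10* and *Zrsr1* were called in neither fit. *Airn* fell (−3.60 ± 0.75, adjusted p = 0.00434, or −3.43 ± 1.02, adjusted p = 0.0796 with all 12) but overlaps *Igf2r*, whose reads cannot be told apart from its own without strand.

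**Figure D5:**
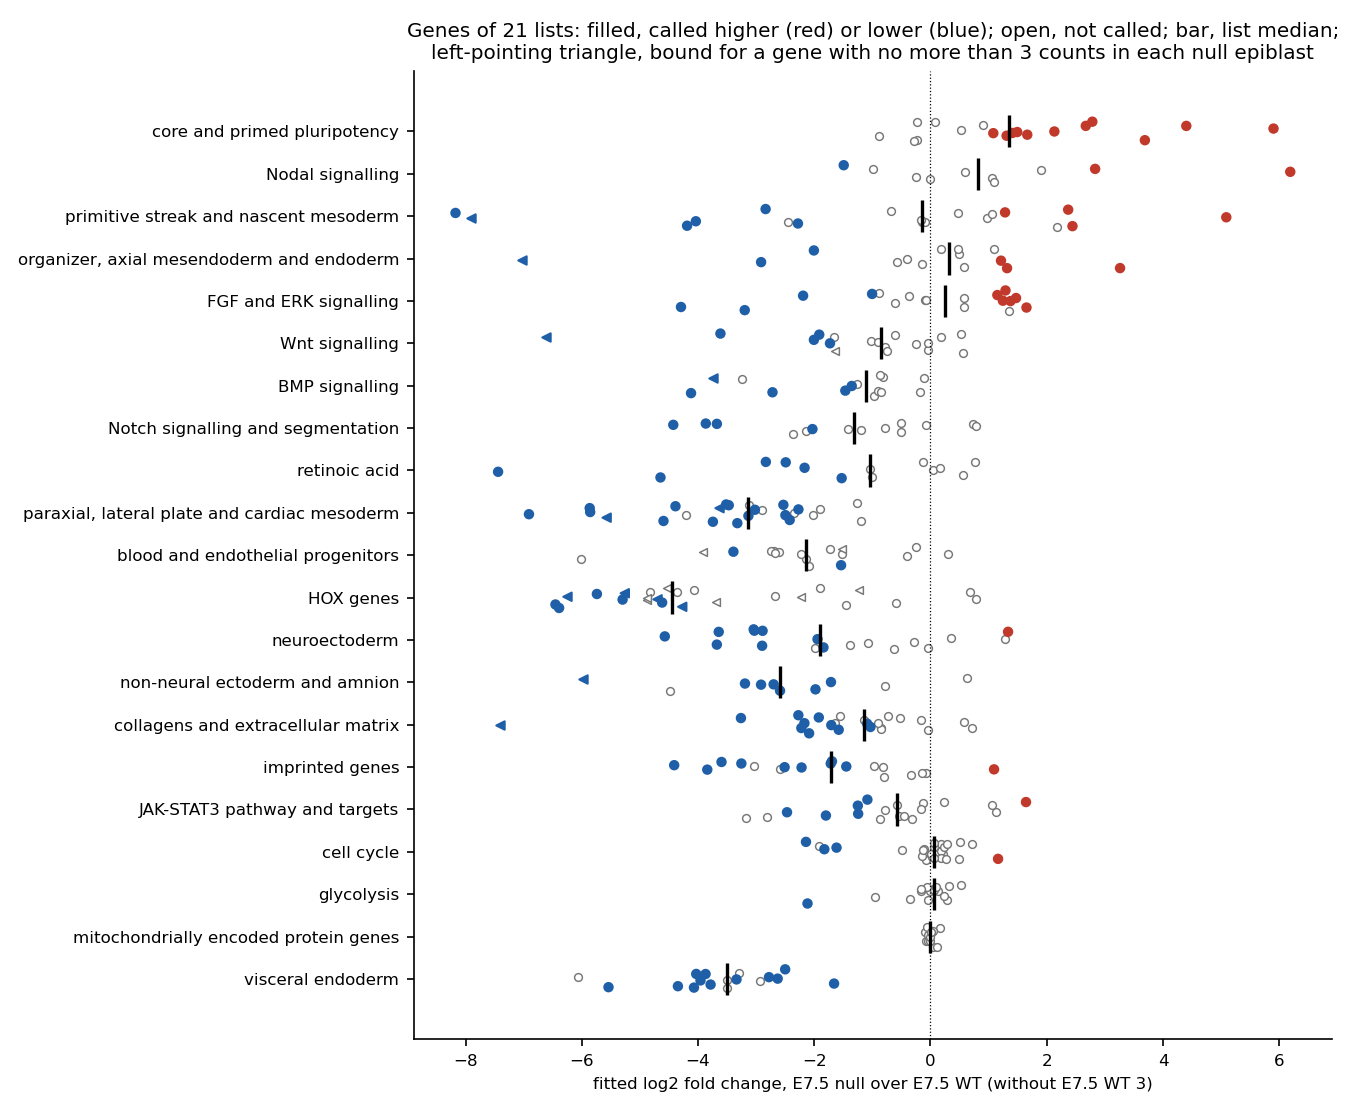
Log2 fold change of null over the 8 WT (x axis, without WT 3) for the tested genes of 21 lists (y axis, 1 line per list), filled where called and open where not, with the list median as a bar and left-pointing triangles for bounds. Pluripotency and Nodal medians lie at 1.36 and 0.83, mesoderm, *Hox* and visceral endoderm medians at −3.13, −4.44 and −3.50, and the mitochondrially encoded genes lie within a narrow band around 0.

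None of 13 mitochondrially encoded protein genes was called in either fit (medians −0.02 and −0.01), the largest difference being that of *mt-Co1* (0.17 ± 0.04, adjusted p = 0.00976 without WT 3, or 0.14 ± 0.06, adjusted p = 0.226 with all 12). Of 17 glycolysis genes the glucose transporter *Slc2a3* fell by both fits (329, 253 and 325 CPM in null, 432 CPM in WT 3, 864 to 1797 CPM in the other 8, −2.02 ± 0.40, adjusted p = 0.0368 with all 12, or −2.13 ± 0.27, adjusted p = 0.000645 without WT 3), and the enzymes *Gapdh*, *Pkm* and *Ldha* differed by at most 0.28 in log2 fold change. Of 26 cell cycle genes, none was called with all 12 and 4 were without WT 3, where 5.68% of all genes were called. Of these *Myc* rose (50.6, 54.4 and 38.8 CPM against 9.81 to 36.0 CPM, 1.16 ± 0.27, adjusted p = 0.00999, or 0.96 ± 0.36, adjusted p = 0.152 with all 12), and *Ccnd2* (−1.62 ± 0.33, adjusted p = 0.00926, or −1.47 ± 0.61, adjusted p = 0.215 with all 12), *Cdkn1a* (−1.83 ± 0.42, adjusted p = 0.00877, or −1.68 ± 0.58, adjusted p = 0.117 with all 12) and *Cdkn1c* (−2.14 ± 0.29, adjusted p = 0.000515, or −2.0 ± 0.53, adjusted p = 0.0692 with all 12) fell, the last 2 being inhibitors of cyclin-dependent kinases. *Mki67* (−0.08 ± 0.06, adjusted p = 0.513, or −0.08 ± 0.07, adjusted p = 0.566 with all 12) and *Top2a* (0.19 ± 0.05, adjusted p = 0.0221, or 0.16 ± 0.07, adjusted p = 0.213 with all 12) were not called. *Pmaip1*, a death gene activated by p53, rose among 14 genes of the p53 response without WT 3 (91.6, 99.1 and 73.7 CPM against 10.3 to 49.5 CPM, 1.88 ± 0.43, adjusted p = 0.0146, or 1.54 ± 0.55, adjusted p = 0.147 with all 12). The calls of *Ccnd2* and *Pmaip1* were lost without null 1 or null 2, that of *Myc* without null 2 and that of *Cdkn1a* without null 1. Of 6 tested genes of primordial germ cells, 3 fell without WT 3. *Prdm1*, which visceral endoderm also expresses, fell by both fits (3.06, 1.88 and 2.03 CPM in null, 6.95 CPM in WT 3, 5.18 to 23.6 CPM in the other 8, −2.51 ± 0.45, adjusted p = 0.0207 with all 12, or −2.60 ± 0.42, adjusted p = 0.000712 without WT 3), and *Tfap2c* and *Ifitm1* fell without WT 3.

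Genes with the smallest p whose groups did not overlap were taken by rule, 10 in each direction from each fit. Among the higher ones with all 12, *Adamts9*, a secreted metalloprotease of the extracellular matrix, came first. It was read at 128, 127 and 141 CPM in null, 65.5 CPM in WT 3 and 19 to 40.3 CPM (median 33.6) in the other 8, and E6.5 WT epiblasts ranged from 17.5 to 67.6 CPM. The null values thus lay at least 127 CPM, above every WT of both stages (1.88 ± 0.24, adjusted p = 0.00877 with all 12, 2.04 ± 0.16, adjusted p = 2.36e-06 without WT 3). *Foxo1*, a transcription factor held back by AKT, was at 72.0, 76.0 and 57.1 CPM in null, 55.3 CPM in WT 3 and 19.3 to 38.1 CPM in the other 8 (1.13 ± 0.23, adjusted p = 0.0335 with all 12, 1.27 ± 0.17, adjusted p = 0.000167 without WT 3), the margin of null 3 over WT 3 being small. *Lzts1* (1.82 ± 0.30, adjusted p = 0.0183 with all 12, or 1.92 ± 0.29, adjusted p = 0.000406 without WT 3), *Calca*, the calcitonin gene (1.54 ± 0.29, adjusted p = 0.0265 with all 12, or 1.62 ± 0.29, adjusted p = 0.00138 without WT 3), *Mybl1* (1.27 ± 0.25, adjusted p = 0.0293 with all 12, or 1.25 ± 0.26, adjusted p = 0.0038 without WT 3), *Wipf3* (1.05 ± 0.24, adjusted p = 0.0409 with all 12, or 1.11 ± 0.23, adjusted p = 0.0044 without WT 3) and *Prob1* (1.2 ± 0.28, adjusted p = 0.0417 with all 12, or 1.35 ± 0.23, adjusted p = 0.000945 without WT 3) were on the list beside *Wnt3* and *Socs2*. Without WT 3 the list gained *Skil*, a corepressor of SMADs and a target of Nodal signalling. It was read at 289, 295 and 205 CPM in null, 309 CPM in WT 3 and 48.9 to 69.7 CPM (median 57.7) in the other 8 (2.19 ± 0.11, adjusted p = 1.02e-07, or 1.62 ± 0.55, adjusted p = 0.131 with all 12). *Rbpms2* (1.36 ± 0.10, adjusted p = 1.33e-06, or 1.06 ± 0.35, adjusted p = 0.12 with all 12), *Sema6a* (1.44 ± 0.12, adjusted p = 6.52e-06, or 1.16 ± 0.34, adjusted p = 0.0902 with all 12), *Mkrn1* (1.19 ± 0.11, adjusted p = 5.9e-06, or 0.96 ± 0.28, adjusted p = 0.0882 with all 12) and *Shroom2* (1.18 ± 0.10, adjusted p = 4.89e-06, or 0.92 ± 0.31, adjusted p = 0.124 with all 12) rose likewise, and in these 5 genes WT 3 was above all 3 null epiblasts.

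Among the lower genes with all 12, *Col23a1*, a transmembrane collagen, came first (3.29, 3.76 and 7.65 CPM in null, 22.9 CPM in WT 3, 25.0 to 52.6 CPM in the other 8, −2.76 ± 0.32, adjusted p = 0.00498 with all 12, or −2.82 ± 0.30, adjusted p = 3e-05 without WT 3), and here WT 3 stayed near the other WT. *Lmx1b*, a LIM homeobox factor, gave 4.58, 1.67 and 2.35 CPM in null, 10.1 CPM in WT 3 and 22.1 to 51.0 CPM in the other 8 (−3.31 ± 0.45, adjusted p = 0.00877 with all 12, or −3.43 ± 0.34, adjusted p = 1.66e-05 without WT 3), *Gas6*, a ligand of the TAM receptors, 5.11, 3.33 and 4.43 CPM, 9.23 CPM and 12.6 to 22.3 CPM (−1.89 ± 0.27, adjusted p = 0.00877 with all 12, or −1.97 ± 0.23, adjusted p = 7.37e-05 without WT 3), and *S1pr2*, a sphingosine phosphate receptor, 8.39, 5.53 and 6.56 CPM, 14.1 CPM and 14.2 to 22.0 CPM (−1.43 ± 0.20, adjusted p = 0.00877 with all 12, or −1.47 ± 0.19, adjusted p = 0.000147 without WT 3). In each of them WT 3 lay between the null epiblasts and the lowest other WT. *Atoh8* fell too (−4.56 ± 0.63, adjusted p = 0.00877 with all 12, or −4.69 ± 0.46, adjusted p = 1.66e-05 without WT 3). *Alx4*, *Hes3*, *Tnnt3* and *Triml2* had no counts in any null epiblast and were at least 41.5-, 87.1-, 33.3- and 56.4-fold lower. Without WT 3 the list held *Fzd10*, *Msgn1*, *Hoxb3os*, *Fgfr1* and *Fgfr2*, described with their groups, and *Cpm* (−2.70 ± 0.16, adjusted p = 1.89e-07, or −2.56 ± 0.48, adjusted p = 0.033 with all 12), *Fhdc1* (−2.83 ± 0.18, adjusted p = 4.3e-07, or −2.70 ± 0.41, adjusted p = 0.0172 with all 12), *Kitl*, the ligand of the KIT receptor (−3.14 ± 0.25, adjusted p = 2.85e-06, or −3.0 ± 0.49, adjusted p = 0.0187 with all 12), *Mcc* (−1.90 ± 0.16, adjusted p = 3.8e-06, or −1.76 ± 0.47, adjusted p = 0.0718 with all 12) and *Gprc5c* (−1.58 ± 0.13, adjusted p = 4.28e-06, or −1.49 ± 0.24, adjusted p = 0.0183 with all 12). *Cpm*, the carboxypeptidase M gene, was read at 7.5, 8.35 and 7.29 CPM in null, 7.67 CPM in WT 3 and 41.3 to 68.3 CPM in the other 8.

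Some called genes had all 3 null values outside the E6.5 WT range too, on either side. Of the 220 called higher without WT 3, 9 (4.09%) lay above every E6.5 WT and 20 (9.09%) below every E6.5 WT, and of the 885 called lower 47 (5.31%) lay above and 13 (1.47%) below. Among all genes tested the shares were 2.65% above and 1.79% below. The 9 called higher that lay above every E6.5 WT were *Adamts9*, *Spon1*, *Calca*, *Vrtn*, *Arfgef3*, *Chrd*, *Tnfsf11*, *Nrcam* and *Penk*, of which all but *Adamts9*, *Calca* and *Chrd* were named after their values were seen. *Spon1* was at 53.7 to 57.9 CPM in null, against at most 25.1 CPM in the 8 WT and 34.1 CPM at E6.5, but WT 3 was higher still (74.9 CPM). *Vrtn* was at 142 to 155 CPM in null, 113 CPM in WT 3, at most 92.9 CPM in the other 8 and at most 134 CPM at E6.5. WT 3 lay within the null range for *Penk* and below all 3 null epiblasts for the other 7. *Nrcam* overlapped the 8 WT.

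*Stat3* lies on chromosome 11, and genes close to it are inherited together with the null allele. Within 10 Mb of *Stat3*, 7 of 337 genes tested were called with all 12 (2.08%, against 1.17% overall), and 24 of 336 without WT 3 (7.14%, against 5.67% of all genes tested other than *Stat3*). The 24 included 5 *Hoxb* genes, *Wnt3* at 2.83 Mb and *Stat5b* at 0.0344 Mb. A difference carried by the linked chromosome and the loss of *Stat3* cannot be told apart for these genes.

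The genotype effect at E7.5 was last compared with that at E6.5 (8 null and 9 WT) by an interaction term over 29 epiblasts. The difference was called for 98 of 22122 genes (0.443%), 41 toward higher and 57 toward lower in null at E7.5. The count rested on single epiblasts. Leaving out null 1 or null 2 of E7.5 left 0 calls in edgeR (2550 and 2484 genes at an unadjusted p under 0.05), leaving out null 3 left 16 and leaving out WT 3 left 482. Libraries of the E6.5 null group also stood apart. Extraembryonic ectoderm markers summed to 901 CPM in E6.5 null 1, against 7.25 to 33.9 CPM in E6.5 WT, visceral endoderm markers reached 4609 to 7373 CPM in E6.5 null 3, 4 and 8, against 93.0 to 6224 CPM in E6.5 WT, and 15531 and 15171 genes were detected in E6.5 null 2 and 3. In alternatives chosen after seeing the data, the difference was called for 122 genes without E6.5 null 1, for 108 without E6.5 null 2 and 3, and for 0 without E6.5 null 3, 4 and 8 (2560 genes at an unadjusted p under 0.05). The calls of the difference thus did not hold without the E6.5 null epiblasts with the most visceral endoderm markers, which left 5 null at that stage, and the part of these markers was not tested. Among the list genes, with all 29 epiblasts, *Dusp6* gave a difference of 1.69 ± 0.28, adjusted p = 0.00841, *Spry2* of 1.68 ± 0.31, adjusted p = 0.0199, *Spry4* of 1.83 ± 0.38, adjusted p = 0.0302 and *Jak2* of −3.72 ± 0.72, adjusted p = 0.0199 on the log2 scale. Without E7.5 WT 3 the differences were 1.86 (adjusted p = 9.54e-06) for *Dusp6*, 1.84 (0.000144) for *Spry2*, 2.12 (3.94e-05) for *Spry4* and −3.83 (0.00166) for *Jak2*. Without E6.5 null 3, 4 and 8 they were 1.68, 1.66, 1.85 and −2.77, with adjusted p of 0.0663, 0.0663, 0.0819 and 0.0663.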

How the data were processed

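RNA was taken from single epiblasts and sequenced with a stranded total RNA kit for low input. The authors aligned reads to GRCm38 with HISAT2 and counted genes with StringTie, and the deposited values are raw gene counts. The annotation release and the strand setting are not given in the sources used here. Total counts were 25793920 to 41655234 per epiblast, and 3 counts, taken as the limit of detection, were worth 0.0760 CPM on average in null libraries. Limits of detection cover counting error only. Standard errors of fold changes were derived from the quasi-likelihood test, which also takes in the spread between epiblasts.

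Counts were tested with edgeR 4.0.16 (quasi-likelihood test, robust, TMM, filterByExpr with a minimum count of 10) in R 4.3.3, and p-values were adjusted across every tested gene (Benjamini-Hochberg). The first fit held 3 null and 9 WT epiblasts, and the second left out WT 3. *Stat3* was also tested by an exact permutation test, and the difference of the genotype effect from E6.5 by an interaction term over 29 epiblasts. Bounds replace fold changes where no null epiblast had more than 3 counts. Fits were tested on simulated data. Genes named were *Stat3*, members of the lists and, per fit and direction, the 10 called genes with the smallest p whose groups did not overlap, without clone names (Gm or Rik), and others are said to be named after their values were seen. The comparison, the gene lists and WT 3 were chosen with earlier results of these data known. Alternatives were DESeq2 1.42.0, limma 3.58.1 voom weights, other scalings and filters, Y-linked genes as a covariate, a replicate block and all 35 epiblasts in 1 fit. In separate fits, single E7.5 epiblasts were left out in turn. E6.5 null epiblasts that stood apart were also left out, a choice made after seeing the data. Promoters came from RefSeq. *Apoc2*, on 2 lines of the table, was left out. Results of a few genes are not reported here.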

Additional observations from a re-analysis of the deposited data

Results flagged for a closer look

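A WT epiblast stood apart from the other WT of E7.5 in 17 of 123 groups of log2 CPM values, by the gap to its nearest neighbour over the whole range, where chance gives about 1 in 20. In 15 of the 17 that epiblast was WT 3. The ratio of gap to range for WT 3 was 0.633 for *Socs2*, 0.55 for *Sox17*, 0.528 for *Nog*, 0.818 for *Twist1*, 0.808 for *Aldh1a2*, 0.557 for *Lhx5*, 0.636 for *Col4a1*, 0.85 for *Lama1*, 0.75 for *Krt8*, 0.861 for *Fzd10*, 0.494 for *Atoh8*, 0.77 for *Cpm*, 0.765 for *Fhdc1*, 0.723 for *Kitl* and 0.61 for *Gprc5c*. The other 2 were WT 9 for *Snrpn* (0.559) and WT 1 for *Notch1* (0.628). Among the 119 genes in the text, 1 of the 9 WT stood apart for 71, and it was WT 3 for all 71. WT 3 had been singled out from its values in these data, so these counts are no independent support for leaving it out.

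The genotype effect (log2, null over WT) differed between E7.5 and E6.5 by the interaction term for 22 of the genes followed. Over all genes tested it differed for 98 of 22122 (0.443%). The genes followed include genes named for their calls at E7.5, and the same E7.5 values enter the interaction. The count of 22 is therefore no independent result about these genes. The effect at E7.5 minus that at E6.5 was positive for *Socs2* (1.88), *Dusp6* (1.69), *Mybl1* (1.70), *Foxo1* (1.11), *Prob1* (1.86), *Dnmt3a* (1.29), *Etv5* (1.57), *Spry2* (1.68), *Spry4* (1.83), *Mkrn1* (1.66) and *Sema6a* (1.52). It was negative for *Jak2* (−3.72), *Twist1* (−3.45), *Krt8* (−3.03), *Krt18* (−2.46), *Slc2a3* (−2.95), *S1pr2* (−2.05), *Cpm* (−2.81), *Fhdc1* (−3.70), *Igf2* (−6.84), *Peg3* (−2.42) and *H19* (−5.10). None of these differences was called when E7.5 null 1 or null 2 was left out, or E6.5 null 3, 4 and 8 together, the E6.5 null epiblasts with the most visceral endoderm markers (4609 to 7373 CPM), since the interaction then gave 0 calls. Without E6.5 null 1, which held 901 CPM of extraembryonic ectoderm markers, 19 of the 22 were called, and without E6.5 null 2 and 3 16 of the 22.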

How the results depend on the processing

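With all 12 epiblasts, the 231 calls became 1018 with DESeq2, 1198 with voom and sample quality weights, 11 with all 35 epiblasts in 1 fit and 0 with the replicate number as a block (907 genes at an unadjusted p under 0.05), and leaving out an epiblast gave 0 to 1105. The 1105 calls without WT 3 became 690 with the block, 519 of them shared, and 692 to 1189 with an epiblast left out. Only null 1 to 3 share a number with a WT, so WT 4 to 9 added nothing to the block's genotype effect. The block thus compared null 1 to 3 with WT 1 to 3, WT 3 included. Without WT 3 it compared null 1 and 2 with WT 1 and 2. Its counts cannot tell whether the calls hold over all the WT. Same-numbered null and WT epiblasts did not deviate together (correlations −0.00407, 0.0108 and −0.186), which gave no sign that the numbers pair the samples. The value of −0.186 belongs to null 3 and WT 3, the epiblast that stood apart. So few values cannot decide the question, and litters are not given in the sources used here. The 98 calls of the difference from E6.5 became 636 with DESeq2, 186 with a mean count of at least 50, 0 to 482 with an E7.5 epiblast left out, and 0 without E6.5 null 3, 4 and 8 (chosen after seeing the data). The *Stat3* difference stayed between −3.34 and −3.04 with each epiblast left out, and its p was the smallest possible each time. The remaining alternatives left the counts within 1.5 times.

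Of the alternative values of 119 named genes, 2788 kept their direction and call, and the others kept their direction but lost the call. None turned. With all 12 epiblasts, the block and the fit without null 2 ended all 39 calls among them. Without WT 3, the block ended 23 of 119, leaving out null 1 ended 21, null 2 24 and null 3 3, and leaving out a WT ended at most 2. The block compared only epiblasts that share a number, as given above. The cause was not tested. At these depths 3 counts were worth 0.0726 to 0.112 CPM per library, and levels under that were not detectable.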
